A study of Drosophila melanogaster with 3 samples.

Results

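Aminoacyl-tRNA synthetase genes are described here by the binding of the protein CG9609 at their promoters in Drosophila melanogaster embryos. The members are the protein-coding genes whose symbol is an amino acid code followed by RS, or RS-m for the mitochondrial enzyme, which gave 35 of 13968 protein-coding genes, 20 cytoplasmic and 15 mitochondrial. The rule for membership used gene symbols and no measured value, but the list was chosen with earlier results of these data known. A gene was called bound when the summit of a peak lay within 500 bp of 1 of its transcription start sites (TSSs).

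The peaks came from chromatin immunoprecipitation and sequencing (ChIP-seq) with an antibody to GFP, on whole embryos of both sexes aged 0 to 24 h. The embryos were from a transgenic line, CG9609-GFP, in which CG9609 is stably expressed with a C-terminal GFP tag. The labels give 3 biological replicates, which form the only group. What drives the transgene is not stated in the labels, and whole embryos pool all cell types. The authors' optimal set by irreproducible discovery rate, here the reproducible set, holds 3747 peaks in dm6. These are the top 3747 of the authors' pooled list, so a peak of this set need not be strong in every replicate. The replicate lists hold 30000, 29898 and 30000 regions with background included.

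Aminoacyl-tRNA synthetases join each amino acid to its tRNA and so supply the ribosome with charged tRNAs. Animal cells make cytoplasmic enzymes and a separate, nuclear-encoded set that is imported into mitochondria and charges the tRNAs of the mitochondrial genome. In animals, as known best from mammals, several cytoplasmic enzymes are held together in a multisynthetase complex with scaffold proteins, and by their catalytic fold the enzymes fall into class I and class II. CG9609 is annotated with a gene number only and no role is assumed for it here.

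CG9609-GFP promoter peaks stood at 10 cytoplasmic and 2 mitochondrial synthetase genes. Of the 20 cytoplasmic genes 10 were bound in the reproducible set (50%, 95% Wilson interval 29.9 to 70.1%), and of the 15 mitochondrial genes 2 were (13.3%, 3.74 to 37.9%). Together 12 of 35 members were bound (34.3%, 20.8 to 50.8%), where 18.8% of all protein-coding genes were. The 2 Wilson intervals overlap, and they cover counting error only. No test was made between the kinds of enzyme, since the genes were listed with earlier results of these data known and genes of 1 list are not replicates.

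The difference had the same direction in every replicate but not the same size. Among as many strongest regions of each list as the reproducible set holds, 10, 9 and 6 cytoplasmic genes were bound in replicates 1, 2 and 3 (50, 45.0 and 30%). The mitochondrial counts were 1, 2 and 3 (6.67, 13.3 and 20%). Over all protein-coding genes the shares were 16.8, 18.7 and 18.5% in replicates 1, 2 and 3. The cytoplasmic share exceeded the mitochondrial by 43.3, 31.7 and 10 percentage points, a mean of 28.3 ± 16.9 (SD, n = 3), and the SD between replicates was larger than the difference in replicate 3. An exact two-sided sign-flip test over 3 replicates cannot give a p under 0.25. In replicate 3 the mitochondrial share was close to that of all genes, and in replicate 1 it was lower.

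**Figure D1:**
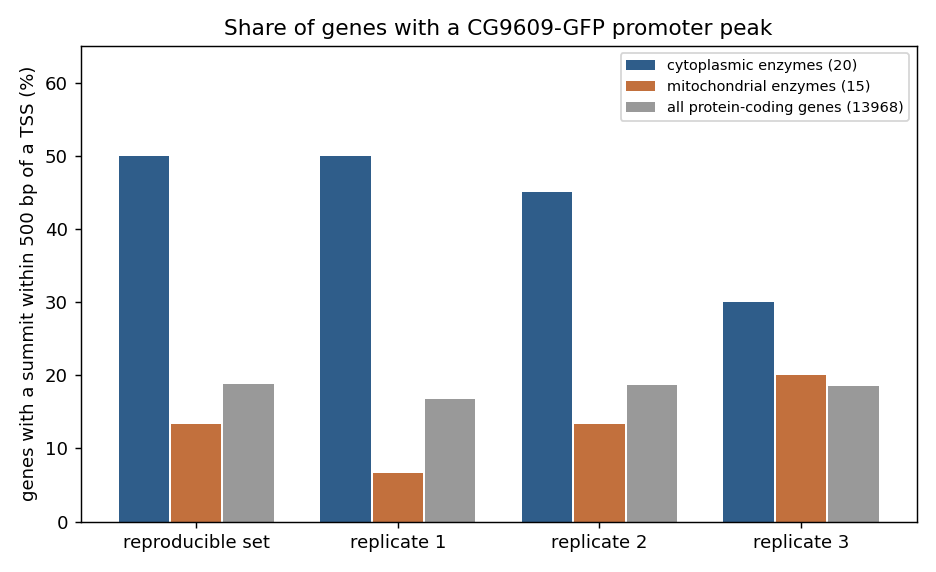
Share of genes (percent, vertical axis) with a summit within 500 bp of a TSS in the reproducible set and among the strongest regions of each replicate, as bars from 0 for 20 cytoplasmic enzymes, 15 mitochondrial enzymes and 13968 protein-coding genes. The cytoplasmic bar is the tallest in each group, from 50% down to 30%, and the mitochondrial bar reaches 20% in replicate 3.

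Replicate 1 stood apart from the others in where its strongest regions lay. Their summits were in coding exons for 8.99% in replicate 1, 1.31% in replicate 2 and 0.801% in replicate 3. Without replicate 1 the mean difference between cytoplasmic and mitochondrial shares was 20.8 points, and regions shared by replicates 2 and 3 bound 5 cytoplasmic and 2 mitochondrial genes, where 14.0% of all protein-coding genes were bound. Its part in the results was not tested. The labels name the replicates as biological, and read depth is unknown, as the lists hold no read counts.

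Signal ranks were also read below the threshold of the reproducible set. With the best region within 500 bp of each gene, the median cytoplasmic rank was 3836, 5510 and 5196 in replicates 1, 2 and 3, where rank 1 is the strongest region. The median mitochondrial gene had no region in replicate 1 and ranks of 22443 and 16091 in replicates 2 and 3. The median protein-coding gene had no region in replicates 1 and 2 and rank 24408 in replicate 3. A region of any replicate list, background included, lay at 19 cytoplasmic and 12 mitochondrial genes, and at 68.6% of all protein-coding genes.

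**Figure D2:**
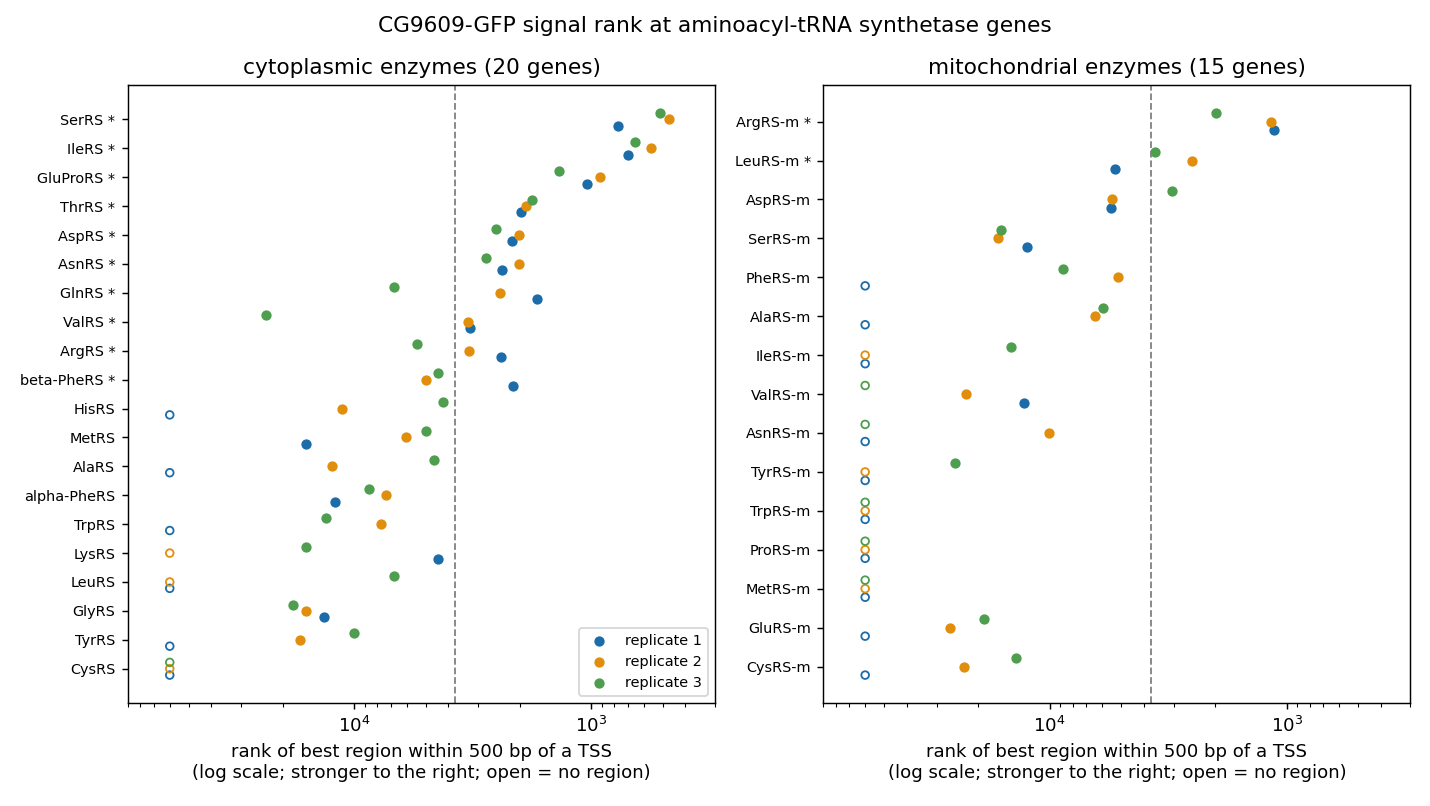
Rank of the best region within 500 bp of a TSS for each synthetase gene in the 3 replicates, on a log axis with stronger ranks to the right; open circles mark no region, asterisks the genes bound in the reproducible set, and the dashed line rank 3747. SerRS and IleRS lie farthest right in all replicates among cytoplasmic enzymes, and ArgRS-m among mitochondrial ones.

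The sequence between summit and TSS is given for 5 members, to show where 3 of the motifs searched stood and, at ArgRS-m, a stretch in which none was found. Each runs 5′ to 3′ on the strand of the synthetase gene, from 50 bp beyond the summit to the base before the TSS, in dm6. Capitals mark TATCGATA, the DNA replication-related element of Drosophila promoters, GGTCACAC, the core of a Drosophila core promoter motif, or the E-box CACGTG, on either strand.

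IleRS, chr3L:22288494-22288664, plus strand: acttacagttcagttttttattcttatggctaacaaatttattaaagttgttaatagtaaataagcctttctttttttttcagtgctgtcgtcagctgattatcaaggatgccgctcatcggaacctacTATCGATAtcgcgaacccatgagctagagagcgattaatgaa
ArgRS, chrX:15844146-15844327, minus strand: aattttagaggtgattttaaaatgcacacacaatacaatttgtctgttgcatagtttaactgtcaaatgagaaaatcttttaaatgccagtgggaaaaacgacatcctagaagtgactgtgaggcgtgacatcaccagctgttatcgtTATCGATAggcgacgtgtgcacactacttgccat
beta-PheRS, chr3R:24252680-24252787, minus strand: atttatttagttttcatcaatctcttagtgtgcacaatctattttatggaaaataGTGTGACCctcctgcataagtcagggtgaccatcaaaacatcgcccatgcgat
ArgRS-m, chr3R:7886855-7887044, plus strand: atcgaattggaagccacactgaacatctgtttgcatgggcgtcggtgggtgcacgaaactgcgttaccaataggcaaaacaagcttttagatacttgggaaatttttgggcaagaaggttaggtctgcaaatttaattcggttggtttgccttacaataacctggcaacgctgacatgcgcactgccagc
LeuRS-m, chr3L:4825709-4825852, plus strand: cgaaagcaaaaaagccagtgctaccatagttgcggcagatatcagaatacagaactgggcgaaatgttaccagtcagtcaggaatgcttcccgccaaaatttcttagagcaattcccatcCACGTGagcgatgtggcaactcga

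Of the cytoplasmic enzymes that the multisynthetase complex of animals holds, 5 of 8 were bound (62.5%, Wilson interval 30.6 to 86.3%). Outside it 5 of 12 were (41.7%, 19.3 to 68.0%), where 18.8% of all protein-coding genes were bound. The 2 intervals overlap, and no test was made between these groups. IleRS (FBgn0027086), which charges isoleucine tRNAs, had the strongest peak within the complex, at rank 592 with a signal value of 269, on 3L from 22288462 to 22288561. Its ranks were 696, 561 and 650 in replicates 1, 2 and 3. This peak, 100 bp wide, was the only member peak narrower than 390 bp, and its summit lay 121 bp upstream of the TSS. GluProRS (FBgn0005674), a bifunctional enzyme for glutamic acid and proline, was bound at rank 1042 on 3R from 23958299 to 23958688, 103 bp upstream, with ranks 1042, 920 and 1370. Both genes were thus among the strongest regions of all replicates, with little movement in rank.

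AspRS (FBgn0002069), the aspartic acid enzyme, had rank 2226 on 2R from 12879835 to 12880224 and ranks 2156, 2010 and 2512 in replicates 1, 2 and 3. Its summit lay in an annotated intron, 254 bp upstream of the nearest AspRS TSS and 200 bp downstream of the TSS of Nmda1. AspRS has 3 TSSs and spans 12877004 to 12883168, so the summit also lay inside AspRS. GlnRS (FBgn0027090), for glutamine, had rank 3144 on 3R from 25265536 to 25265925, with the summit 10 bp upstream. Its ranks of 1693 and 2430 in replicates 1 and 2 stood against 6805 in replicate 3, which is outside the strongest regions. ArgRS (FBgn0027093), for arginine, had rank 3490 on X from 15844082 to 15844471, with ranks of 2405, 3281 and 5419 in the replicates, and its summit was 132 bp upstream. The peaks of GlnRS and ArgRS were in this way absent from the strongest regions of replicate 3, and that of AspRS was present in all.

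The other 3 genes of the complex had no reproducible peak. MetRS, for methionine, had regions in all lists at ranks 16018, 6054 and 4974. LysRS, for lysine, had ranks 4428 and 15979 in replicates 1 and 3 and no region in replicate 2. LeuRS, for leucine, had a region only in replicate 3, at rank 6772. None of the 3 reached the strongest regions of any replicate.

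Outside the complex SerRS (FBgn0031497), which charges serine tRNAs, held the strongest peak of all members. It had rank 548 and a signal value of 284, on 2L from 3037268 to 3037657, with ranks 773, 468 and 513 in replicates 1, 2 and 3. Its summit was 60 bp upstream of SerRS and 43 bp upstream of the opposite-strand gene CG17260, in an annotated 5′ UTR. ThrRS (FBgn0027081), for threonine, followed at rank 1796 on 2L from 12103419 to 12103808, 137 bp upstream, with ranks 1976, 1877 and 1780. AsnRS (FBgn0086443), for asparagine, had rank 2281 on 2L from 19131825 to 19132214, 66 bp upstream, with ranks 2374, 2018 and 2771. These 3 genes were bound in every replicate.

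ValRS and beta-PheRS were weaker and less even. ValRS (FBgn0027079), for valine, had rank 3458 on 2R from 13198180 to 13198569, but the summit was 475 bp upstream of ValRS and 38 bp upstream of Kdm4B, a histone demethylase gene. It was bound in replicates 1 and 2 at ranks 3244 and 3297. In replicate 3 the same peak had rank 4766 and a summit 28 bp farther from ValRS, outside the window, and the best region within the window had rank 23480. beta-PheRS (FBgn0039175), the beta subunit of the phenylalanine enzyme, had rank 3639, with its region on 3R from 24252542 to 24252931 and the summit 58 bp upstream. It was bound in replicate 1 alone, at rank 2140, with ranks 4965 and 4440 in replicates 2 and 3. The gene for the other subunit, alpha-PheRS, was not bound, with ranks 12038, 7324 and 8645, so the genes of the 2 subunits of 1 enzyme differed in the reproducible set.

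The remaining cytoplasmic genes had weak regions or none. GlyRS, for glycine, had ranks 13372, 15897 and 18045 in replicates 1, 2 and 3. HisRS, AlaRS, TrpRS and TyrRS, for histidine, alanine, tryptophan and tyrosine, had no region in replicate 1. HisRS came closest to the threshold among unbound cytoplasmic genes in the authors' pooled list, at rank 5339, and had rank 4228 in replicate 3. CysRS, the cysteine enzyme, was the 1 cytoplasmic gene with no region in any replicate list.

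ArgRS-m and LeuRS-m were the bound mitochondrial genes. ArgRS-m (FBgn0037526), for mitochondrial arginine tRNA, had rank 1270 and a signal value of 179, on 3R from 7886710 to 7887099, 140 bp upstream. Its ranks of 1128, 1158 and 1986 put it among the strongest regions of every replicate. LeuRS-m (FBgn0027085), for mitochondrial leucine tRNAs, had rank 2943 on 3L from 4825564 to 4825953, 94 bp upstream. Its ranks were 2515 and 3589 in replicates 2 and 3, and replicate 1 had only a region at rank 5308, over 100 bp from that summit.

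AspRS-m was the mitochondrial gene nearest to the threshold. It had rank 4149 in the pooled list, of which the reproducible set is the top 3747, and ranks 5485, 5461 and 3040 in replicates 1, 2 and 3, so that it was bound in replicate 3 only. SerRS-m had regions in all lists at ranks 12508, 16503 and 16091. AlaRS-m, AsnRS-m, CysRS-m, GluRS-m, IleRS-m, PheRS-m, TyrRS-m and ValRS-m had regions in 1 or 2 lists. MetRS-m, ProRS-m and TrpRS-m had no region in any list. For the 23 unbound members of both kinds the nearest reproducible summit lay 1093 to 20991 bp from a TSS, with a median of 5753 bp.

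Set side by side by amino acid, the enzymes of the cytoplasm and of mitochondria were both bound for 1 amino acid, arginine. For 15 amino acids both a cytoplasmic and an -m gene were members, with GluProRS set beside both GluRS-m and ProRS-m. The cytoplasmic gene alone was bound for 8 amino acids (asparagine, aspartic acid, glutamic acid, isoleucine, phenylalanine, proline, serine and valine) and the mitochondrial gene alone for leucine. Glutamic acid and proline both count the same peak, that of GluProRS. Phenylalanine counts beta-PheRS, as alpha-PheRS was not bound. Neither gene was bound for alanine, cysteine, methionine, tryptophan and tyrosine. By catalytic class 4 of 9 class I cytoplasmic genes were bound (Wilson interval 18.9 to 73.3%), with GluProRS counted in neither class. Of the class II cytoplasmic genes 5 of 10 were (23.7 to 76.3%), against 18.8% of all protein-coding genes. Both bound mitochondrial genes were of class I, where 0 of 6 class II mitochondrial genes were bound (Wilson interval 0.0 to 39.0%, which holds 18.8%).

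Most bound synthetase promoters were shared with a gene on the opposite strand. Of the 12 member peaks 11 had their summit within 500 bp of the TSS of an opposite-strand gene too, and beta-PheRS was the exception. The same held for 38.2% of the 2008 other promoter peaks. That share counts peaks, whereas the member peaks were reached through genes, and a peak between 2 genes serves both. Counted by gene, 1747 of all 2623 bound genes had an opposite-strand TSS within 1000 bp upstream, as did 11 of the 12 bound members. With 500 bp these counts were 1485 and 10. The partners were Hem, of the actin-regulating SCAR complex, for IleRS; AP-1sigma, a clathrin adaptor subunit, for GluProRS; Dhc64C, the dynein heavy chain, for LeuRS-m; and DCTN6-p27, a dynactin subunit, for AsnRS. They were RIOK2, a kinase of ribosome maturation, for GlnRS, Patsas for ThrRS, Nmda1 for AspRS, Kdm4B for ValRS, CG17260 for SerRS, CG17816 for ArgRS-m and CG8578 for ArgRS. The TSSs of the 2 genes nearest to the summit lay 54 bp apart for AspRS and Nmda1 and 513 bp apart for ValRS and Kdm4B, with the others between.

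The nearest TSS was that of the synthetase gene for 8 of 12 peaks. The summits at SerRS, AspRS, LeuRS-m and ValRS were nearer to CG17260, Nmda1, Dhc64C and Kdm4B. When a summit counted for its nearest TSS only, 7 cytoplasmic genes and 1 mitochondrial gene were bound, where 13.7% of all genes were. A peak between divergent genes cannot be given to either from these lists.

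**Figure D3:**
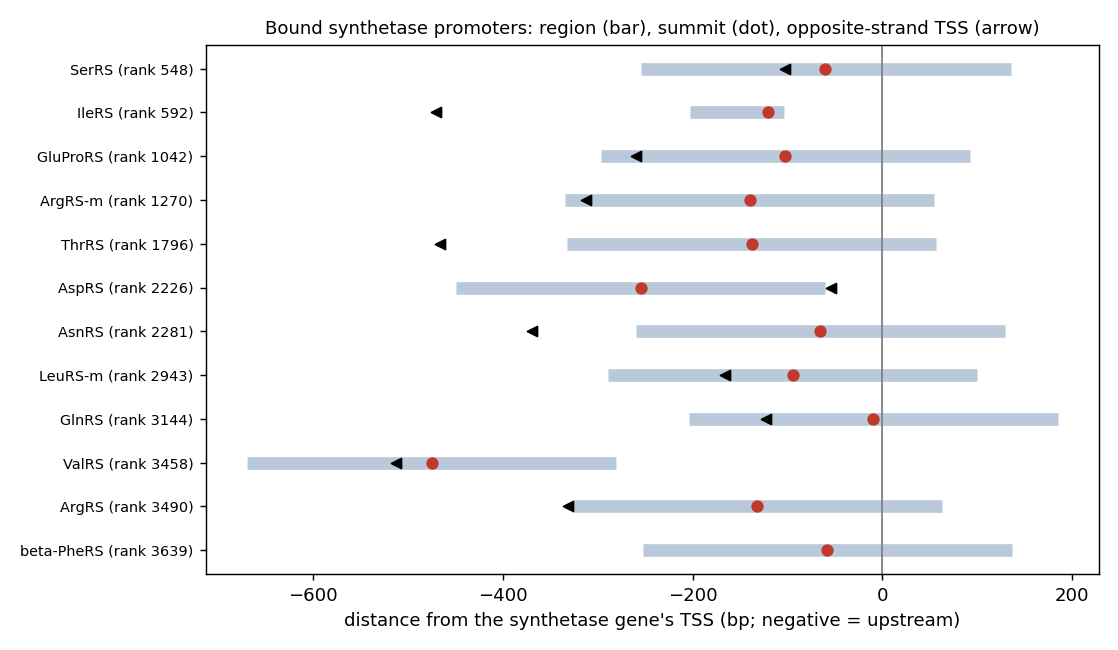
Distance in bp from the TSS of each bound synthetase gene (0, negative upstream) of the peak region (bar), its summit (dot) and the TSS of the opposite-strand gene (arrow), in order of rank. All 12 summits lie upstream of the nearest TSS of their synthetase gene, from 10 to 475 bp. At AspRS the opposite-strand TSS lies between the summit and that TSS.

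The cytoplasmic and mitochondrial members also differed in how many have a divergent neighbour in the annotation. An opposite-strand TSS within 1000 bp upstream was present for 17 of 20 cytoplasmic genes (85.0%) and 7 of 15 mitochondrial genes (46.7%), against 36.2% of all protein-coding genes. Among divergent members 11 of 24 were bound (45.8%, Wilson interval 27.9 to 64.9%), where 34.6% of all divergent genes were. Among members without such a partner 1 of 11 was bound (9.09%, 1.62 to 37.7%), where 9.83% of such genes were. Both intervals hold the share of all genes of the same arrangement. Among divergent members 9 of 17 cytoplasmic and 2 of 7 mitochondrial genes were bound, and among the rest 1 of 3 and 0 of 8. Kind of enzyme and arrangement thus moved together, and the part of the arrangement in the difference between kinds was not tested.

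**Figure D4:**
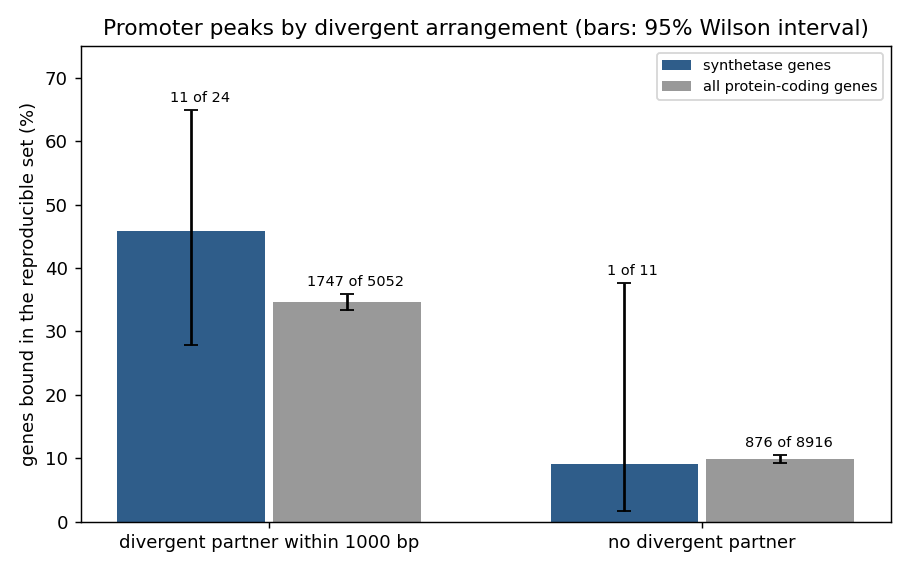
Percent of genes bound in the reproducible set (bars from 0, with 95% Wilson intervals) by whether an opposite-strand TSS lies within 1000 bp upstream, for synthetase genes and all protein-coding genes. The bars of the synthetase genes stand at 45.8% and 9.09%, those of all genes at 34.6% and 9.83%.

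Member peaks were of moderate strength and lay upstream, as most promoter peaks did. Their ranks ran from 548 to 3639 with a median of 2253.5, where the median of all 2020 promoter peaks was 1770.5, and 5 of 12 were in the stronger 1873 peaks. The median summit was 112 bp upstream of the synthetase TSS. Over all promoter peaks the median summit was 76 bp upstream of the nearest TSS, and 83.0% of other promoter peaks lay upstream. The deposited summit was the midpoint of the region for 11 of the 12 peaks and for 83.2% of the reproducible set, which limits how finely a position can be read.

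Of the motifs searched, GGTCACAC had the highest count at member summits. It lay within 50 bp of the summit at 3 of 12 member peaks, those of GlnRS, ValRS and beta-PheRS, where 2.74% of the 2008 other promoter peaks and 2.96% of promoters, taken as the 100 bp before a TSS, held it. In beta-PheRS its centre was 8 bp from the summit and 50 bp upstream of the TSS, and in GlnRS 11 bp from the summit and at the start site. These 3 peaks had ranks of 3144, 3458 and 3639, among the 4 weakest of the members. None of the 12 windows held TATCGATA, which 5.33% of other promoter peaks and 6.01% of promoters held. As the sequences of IleRS and ArgRS show, it stood nearer to the start site than those windows reach at IleRS, 38 bp upstream and 83 bp from the summit, and at ArgRS, 31 bp upstream and 101 bp from the summit. Within 500 bp of a TSS it was present at 4 of 12 bound members, also AspRS and AsnRS, and at 4 of 23 unbound members, AlaRS, GlyRS, TrpRS and PheRS-m. Within the same distance GGTCACAC was present at 2 of 12 bound members, GlnRS and beta-PheRS. It was also present at 4 of 23 unbound members, AsnRS-m, AspRS-m, ProRS-m and TyrRS. At ValRS it was not found within that distance of the TSS, although it lay within 50 bp of the summit. The other motifs searched, on both strands, were found within 50 bp of no member summit. The E-box CACGTG stood 21 bp upstream of LeuRS-m, 73 bp from the summit, and within 500 bp of a TSS it was present at 4 of 12 bound and 2 of 23 unbound members. No share over all genes was taken for the distance of 500 bp, so these counts have no background beside them. In the shorter windows, within 50 bp of a summit or 100 bp before a TSS, CACGTG was in 1.29% of other promoter peaks and 1.02% of promoters. The GAGA repeat GAGAGAG was in 1.49% and 2.91%, the ATF4-type site TTGCATCA in 0.299% and 0.215%, and the cAMP response element TGACGTCA in 0.249% and 0.115%. The AP-1 site TGAGTCA was in 0.946% and 0.823%, and the forkhead core TGTTTAC in 3.04% and 2.58%. Within 500 bp of a TSS, TTGCATCA was present at 5 of 12 bound and 3 of 23 unbound members, also without a background share. All these TTGCATCA sites lay downstream of the TSS, by 52 to 496 bp. At bound members they were 118 to 633 bp from the summit. GluRS-m was the only mitochondrial gene among those with this site. Within the same 500 bp the counts of bound and unbound members were 1 and 2 for GAGAGAG and 2 and 0 for TGACGTCA. They were 2 and 2 for TGAGTCA and 2 and 1 for TGTTTAC.

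The words of 8 bases most in excess at peaks that serve no member were ATCGATAG, TATCGATA, CAACACTG, TTTAAAAA and AAAATATT, searched on both strands; the first pair overlap in sequence. At least 1 of these 5 words lay within 50 bp of 2 of 12 member summits, TTTAAAAA at AsnRS and AAAATATT at GluProRS, and at 20.6% of other promoter peaks. In the 100 bp before the TSS, 5 of 12 bound and 3 of 23 unbound members held at least 1, against 22.5% of all bound and 14.4% of all unbound genes. By kind of enzyme, 7 of 20 cytoplasmic promoters and 1 of 15 mitochondrial promoters held at least 1 of the words, against 15.9% of all promoters. A match is a description of these letters and shows no binding by a factor.

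Of the other genes of tRNA charging and of its signalling that the annotation holds, 4 of 11 were bound (36.4%, Wilson interval 15.2 to 64.6%). The interval holds the 18.8% of all protein-coding genes. AIMP1, a scaffold protein of the multisynthetase complex in mammals, had rank 2754 and its summit 8 bp upstream. It was bound in 2 replicates, with ranks 3097, 2760 and 4479 in replicates 1, 2 and 3. AIMP2 and AIMP3 were not bound. GatA and GatC, subunits of the amidotransferase that completes glutaminyl-tRNA in mitochondria of other animals, had ranks 524 and 1837 and were bound in all 3 replicates. GatB, the remaining subunit, was not bound, nor was Slimp, a seryl-tRNA synthetase paralogue of mitochondria, which was among the strongest regions of replicate 3 only. Of the genes for the response to amino acid shortage, Thor, a translation inhibitor that binds eIF4E, was bound at rank 2920. Its summit lay 9 bp downstream of the TSS. Thor was bound in 2 replicates, with ranks 7455, 3642 and 1958 in replicates 1, 2 and 3. The kinase gene Gcn2, crc, which encodes the fly ATF4, and PPP1R15 were not bound. Slimp, GatA, GatB and GatC encode mitochondrial proteins, and 2 of these 4 genes were bound (Wilson interval 15.0 to 85.0%, which also holds 18.8%).

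Ribosomal protein genes are set beside the synthetase genes as the other large gene lists of translation. Cytoplasmic ribosomal protein genes, by the RpL and RpS symbols, were bound for 62 of 85 (72.9%), and the mitochondrial ribosomal protein genes for 25 of 73 (34.2%). Of all protein-coding genes 18.8% were bound. In replicates 1, 2 and 3 the shares were 62.4, 69.4 and 75.3% for the first list and 28.8, 38.4 and 34.2% for the second. For all protein-coding genes they were 16.8, 18.7 and 18.5%. The cytoplasmic synthetase share, 41.7% ± 10.4 (SD, n = 3), was lower in replicate 3 than in replicate 1, and the cytoplasmic ribosomal protein share, 69.0% ± 6.48, was higher. The mitochondrial synthetase share was 13.3% ± 6.67 and that of the mitochondrial ribosomal proteins 33.8% ± 4.81 (SD, n = 3), and the synthetase share was the lower in each replicate. No test was made between these lists.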

How the data were processed

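Each deposited list is in narrowPeak format, per the deposited records. No source used here gives the aligner, peak caller or thresholds. The signal value of each region is the authors' own, of unstated scale, and was used only to rank regions within a list. Per the labels, sonication gave fragments of 200 to 800 bp. The dm6 reproducible set, pooled list and replicate lists were used, and the dm3 lists were not used here. Summits are the region start plus the deposited offset, counted from 1. TSSs are those of protein-coding transcripts in Ensembl release 115, whose coordinates are dm6, and sequence came from the RefSeq copy of the same assembly. A gene is bound in a replicate when 1 of its 3747 strongest regions has a summit within 500 bp. Member and motif lists were chosen with earlier results of these data known, so shares are described with 95% Wilson intervals beside those of all genes, without tests. Named are all bound members with the genes sharing their peak, unbound members, bound pathway genes and 2 ribosomal protein lists; unbound pathway genes and the split by divergent arrangement were added after values were seen. Of the pathway list, Mtfmt and Trnt1 matched no symbol. For promoters the canonical TSS was used (13967 genes). Words were counted against windows 300 bp to the right of the summits. The gene assignment was tested on simulated summits, and the motif search was not tested in this way. Alternatives were other windows, TSS rules, overlaps, numbers of regions, and leaving out replicates. Python 3.11.15, pandas 2.3.3 and scipy 1.17.1 were used.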

Additional observations from a re-analysis of the deposited data

How the results depend on the processing

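The direction, with more cytoplasmic than mitochondrial members bound, held under every alternative run, and the counts changed most with the choice of peak set. For members, cytoplasmic and mitochondrial genes, the counts of 12, 10 and 2 became 5, 4 and 1 in the stronger 1873 peaks, where 10.7% of all genes were bound. They became 7, 6 and 1 in the consensus of the replicate lists with summits within 100 bp and also within 250 bp, and 3, 3 and 0 within 50 bp, where 11.6, 12.6 and 8.6% of all genes were bound. Without each replicate in turn they ranged from 7 to 10, from 5 to 9 and from 1 to 2, where 14.0, 13.0 and 13.3% of all genes were bound without replicates 1, 2 and 3. Without replicate 1 the consensus held 2650 peaks and 7 bound members, and without replicate 3 it held 2371 peaks and 10. The consensus sets change the lists and the overlap rule along with the number of peaks, and the cause was not tested. Counting the nearest TSS only left 1 mitochondrial gene. The share of members bound, a mean of 29.5% over replicates, was 12.4% with the 1873 strongest regions per list and 45.7% with 7494, and ranged from 28.6 to 31.4% without each replicate. The difference between kinds ranged from 20.8 to 37.5 points without each replicate, and was 13.9 and 33.3 points with these numbers of regions. Words lay at 4 member peaks within 100 bp of the summit, in place of 2. A wider window can hold more matches at any peak, and no share of other promoter peaks is given for it. The choice of words also depends on the window, so the words may differ between the widths. Of 51 alternative values 29 moved less than the spread or 1.5 times. A distance of 500 bp for divergent partners, added after seeing the data, left 10 bound members with a partner in place of 11. No paired analysis was possible because the samples form 1 group. The lists give no depth, so a missing region shows only that none was listed.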

Other observations

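The motif GGTCACAC, which stood at 3 weak member peaks, was followed at peaks that serve no synthetase gene. The 55 other promoter peaks with the motif within 50 bp of the summit had a median rank of 2840 in the reproducible set, and the 1953 without it a median of 1750. Of the 11 member peaks with a rank in both lists 8 were weaker in replicate 3 than in replicate 1, among them those at GlnRS, ValRS and beta-PheRS. Among the 43 other peaks with the motif and a summit within 100 bp in all 3 lists, 20 (46.5%) were weaker in replicate 3 than in replicate 1, and so were 49.9% of the 1702 without it. These values are a description across peaks, without a test, and the motif was singled out after its count was seen.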
